A study of Mus musculus with 8 samples.

Results

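The 10 genes S100a8, S100a9, Ltf, Camp, Ngp, Lcn2, Mpo, Elane, Prtn3 and Lyz2 were followed in the pre-B cell RNA-seq and the LSK ATAC-seq libraries of the Dido1ΔE16 study, out of 26140 genes with a named transcript. They encode proteins of neutrophil granules and the neutrophil cytosol. The list was selected on their TPM values (transcript abundances corrected for length and scaled to the total of the library) in these same pre-B libraries, so those values are given as a description and no test was applied to them. All 10 had a mean of at least 1 TPM and were among the 11862 genes that reached this minimum.

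The pre-B cells were sorted from bone marrow, and RNA was taken from 2 WT and 2 Dido1ΔE16 libraries, each made from a pool of mice. LSK cells (Lin-Sca-1+cKit+, a fraction that holds the hematopoietic stem cells and multipotent progenitors) gave 2 WT and 2 Dido1ΔE16 ATAC-seq libraries. Mice were of the C57BL/6 strain, young adults, and carried R26R-EYFP and iCre under the Vav1 promoter, which is active throughout the hematopoietic lineage. The Dido1ΔE16 mice were Dido1flE16/ΔE16, and WT denotes their Dido1flE16/+ littermates, which also carried Cre. Deletion removes exon 16 of Dido1, the terminal exon that encodes the C-terminal part of the Dido3 isoform. Mean coverage of this exon was 15.3 and 10.2 reads per base in WT replicates 1 and 2 and 0.192 and 0.0390 in those of Dido1ΔE16, so all 4 RNA libraries carried the genotype of their label.

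Neutrophils build their granules in sequence. Azurophil (primary) granules are filled first, in promyelocytes, with myeloperoxidase and serine proteases. Specific (secondary) granules follow at the myelocyte stage, with lactoferrin, lipocalin and cathelicidin. The calcium-binding proteins S100A8 and S100A9, which pair as calprotectin, accumulate in the cytosol and are among the most abundant proteins of the mature cell. The granule genes are known as markers of the granulocytic lineage, and none of the 10 is a marker of pre-B cells. In bone marrow the transcripts of all these genes are very abundant outside the B lineage.

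The pre-B libraries were B-lineage libraries by their markers. The TPM of the 20 pre-B markers summed to between 21538 and 24844 in the 4 libraries. Single markers lay apart between genotypes, as given further on. Both Dido1ΔE16 libraries were above both WT libraries for 6 and below for 5, beside 27.1% and 15.5% of all genes tested. On this background the granule genes differed from library to library by an order of magnitude or more. Their summed TPM was 262 in WT replicate 1, 2373 in WT replicate 2, 1171 in Dido1ΔE16 replicate 1 and 10607 in Dido1ΔE16 replicate 2. The genotypes overlapped, since WT replicate 2 lay above Dido1ΔE16 replicate 1. In Dido1ΔE16 replicate 2 the 10 genes held 1.06% of the TPM of the library, against 0.0262% in WT replicate 1.

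The mean sum was 1317 ± 1493 TPM (SD, n = 2) in WT and 5889 ± 6672 TPM (SD, n = 2) in Dido1ΔE16 libraries, a ratio of 4.47. The spread within each genotype exceeded its mean. Ltf entered these sums at its listed value of 0 in WT replicate 1. Without Dido1ΔE16 replicate 2 the ratio was 0.889. Without WT replicate 2 it was 22.5, without WT replicate 1 it was 2.48, and without Dido1ΔE16 replicate 1 it was 8.05. Between libraries of the same replicate number, the sum was 4.47-fold higher in Dido1ΔE16 both for replicates 1 and for replicates 2. All 10 genes were higher in Dido1ΔE16 in both of these pairs, which was so for 33.7% of all genes tested. The labels do not say what a replicate number marks. Transcripts of the Y chromosome, described further on, were present in both replicates 1 and at 0 in both replicates 2. The replicates 1 were unlike each other, with Eif2s3y of this chromosome at 120.1 TPM in WT and 29.3 TPM in Dido1ΔE16. Over all genes tested, the deviations of same-numbered libraries had a correlation of 0.0496 across genes. Whether same-numbered libraries form pairs is therefore not known. An exact two-sided permutation test of 2 against 2 libraries cannot give a p below 0.333. In bulk libraries, fewer cells of a type and less RNA per cell cannot be told apart.

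**Figure D1:**
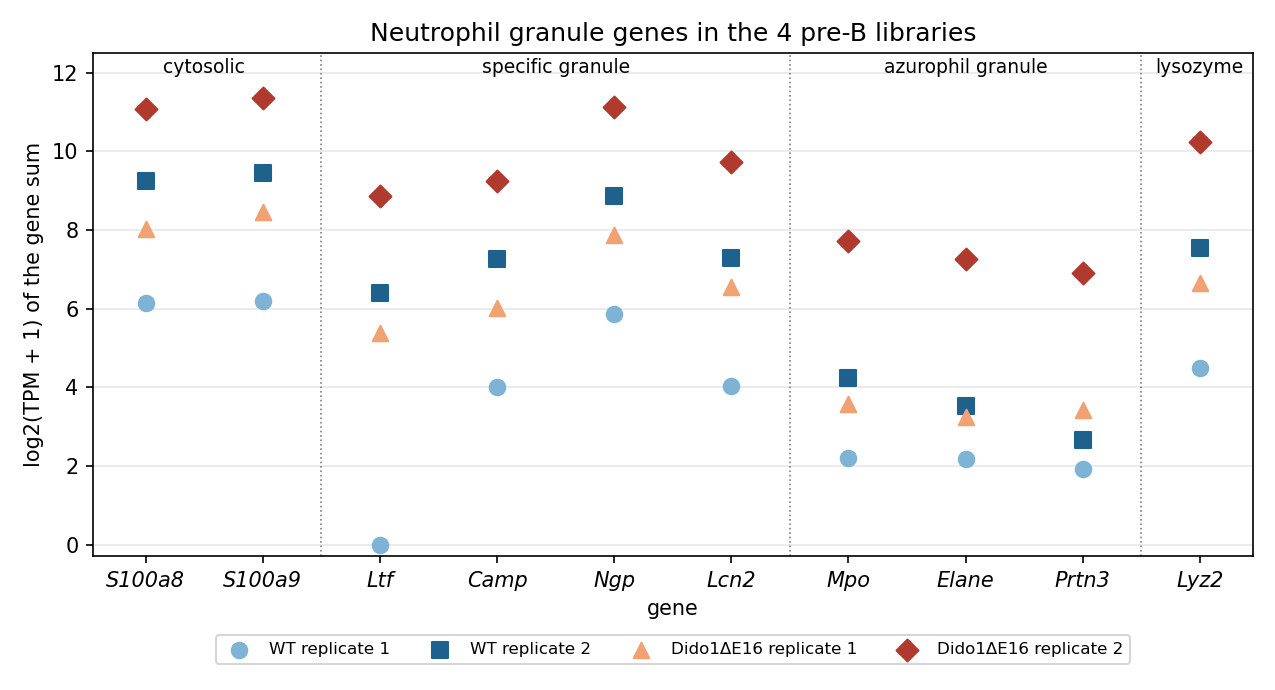
Level of each granule gene in the 4 pre-B libraries, as log2(TPM + 1) of the gene sum (vertical axis), with 1 point per library and the genes ordered by class. Dido1ΔE16 replicate 2 is the highest point for all 10 genes, and WT replicate 2 lies above Dido1ΔE16 replicate 1 for all but Prtn3.

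S100a8 and S100a9 lie close together on chromosome 3. S100a8 was listed at 69.7 and 601 TPM in WT and at 261 and 2146 TPM in Dido1ΔE16 replicates 1 and 2. S100a9 was listed at 72.8 and 699 TPM in WT and at 353 and 2612 TPM in Dido1ΔE16 libraries. Both genes were lowest in WT replicate 1 and highest in Dido1ΔE16 replicate 2, and the genotypes overlapped. In Dido1ΔE16 replicate 2, S100a9 ranked 24 by TPM among all genes, while in WT replicate 1 it ranked 3133. The differences of the genotype means on the log2(TPM + 1) scale were 1.86 (SE 1.5) for S100a8 and 2.08 (SE 1.5) for S100a9.

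The specific granule genes Ltf, Camp and Ngp lie on chromosome 9 and Lcn2 on chromosome 2. Ngp, which encodes neutrophilic granule protein, was the most abundant of them, with 57.4 and 463 TPM in WT and 232 and 2241 TPM in Dido1ΔE16 libraries. Lcn2, the siderophore-binding lipocalin, was at 15.5 and 156 TPM in WT and at 92.4 and 842 TPM in Dido1ΔE16 libraries. Camp, the precursor of the cathelicidin peptide, was at 15.2 and 151 TPM in WT and at 64.2 and 605 TPM in Dido1ΔE16 libraries. These genes stood in the same order of libraries as S100a8 and S100a9.

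Ltf, which encodes the iron-binding protein lactoferrin, was listed at 0 in WT replicate 1, at 83.2 TPM in WT replicate 2 and at 40.7 and 467 TPM in Dido1ΔE16 libraries. None of its 17 exons had coverage in WT replicate 1, and all 17 had coverage in each of the other libraries. A value of 0 in these files can be a failed estimate. Transcripts that every cell uses were also listed at 0 in single libraries, among them Atp5e and Cox6c, subunits of ATP synthase and cytochrome c oxidase, in WT replicate 1, and the ribosomal protein gene Rpl35 in Dido1ΔE16 replicate 2. In WT replicate 1, 12 genes were listed at 0 that had at least 10 TPM in each of the other 3 libraries. No genotype mean is therefore given for Ltf alone, and ranges of the log2 difference over the 10 genes are given with and without it.

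The azurophil granule genes were the least abundant of the 10 in every library, apart from Ltf in WT replicate 1. Mpo, which encodes myeloperoxidase, was at 3.58 and 17.95 TPM in WT and at 10.9 and 209 TPM in Dido1ΔE16 libraries. Elane, neutrophil elastase, was at 3.49 and 10.5 TPM in WT and at 8.51 and 153 TPM in Dido1ΔE16 libraries. Prtn3, proteinase 3, was at 2.77 and 5.29 TPM in WT and at 9.79 and 118 TPM in Dido1ΔE16 libraries. Prtn3 was the 1 gene of the 10 whose genotypes did not overlap, with both Dido1ΔE16 libraries above both WT libraries, which was so for 27.1% of all genes tested. Its log2 difference was 2.88 (SE 1.24). Elane and Prtn3 are neighbours on chromosome 10.

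Lyz2, the lysozyme of neutrophils, monocytes and macrophages, was at 21.6 and 186 TPM in WT and at 99.4 and 1213 TPM in Dido1ΔE16 libraries, again with overlapping genotypes. Its neighbour and close paralog Lyz1 was listed at 0 in 3 libraries and at 34.6 TPM in Dido1ΔE16 replicate 2, which is 2.85% of Lyz2 there. Reads shared by the 2 paralogs could be assigned to either, so the division between them is uncertain.

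For 9 of the 10 genes the libraries stood in 1 order of TPM, with WT replicate 1 lowest, then Dido1ΔE16 replicate 1, WT replicate 2 and Dido1ΔE16 replicate 2. The same order was found for 2.44% of all genes tested. All 10 genes were at least 3-fold above every other library in Dido1ΔE16 replicate 2, which held for 1.95% of all genes tested. The corresponding shares over all genes were 0.405%, 0.438% and 0.658% for WT replicate 1, WT replicate 2 and Dido1ΔE16 replicate 1. The genes were selected on these values and nothing is read from the counts. Over the 10 genes the log2 difference of Dido1ΔE16 minus WT ranged from 1.86 to 3.93 with a median of 2.42 (1.86 to 2.88 and 2.41 without Ltf), beside a median of 0.07 over all genes tested. The limma fit called 6 of those genes, or 0.0506%, where a call took an adjusted p below 0.05 together with a log2 difference of 0.6 or more in size.

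On the log2 scale, leaving out Dido1ΔE16 replicate 2 left the differences of the 10 genes between 0.34 and 2.18, with a median of 0.56 (0.34 to 1.15 and 0.50 without Ltf). They were above 0 for every gene, whereas the ratio of the summed TPM given above was below 1 without this library. The SD between libraries of a genotype had a median over the 10 genes of 2.17 log2 units in WT and 2.38 in Dido1ΔE16 (2.15 and 2.31 without Ltf), beside 0.22 and 0.13 over all genes tested. For the granule genes, the SD within genotypes was therefore close in size to the difference between them.

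The classes did not move in equal proportion. In Dido1ΔE16 replicate 2 the cytosolic genes S100a8 and S100a9 were 3.57-fold and 3.74-fold above the next highest library, which was WT replicate 2. The 4 specific granule genes were between 4.004-fold and 5.62-fold above it, and Lyz2 was 6.53-fold above it. The azurophil genes Mpo, Elane and Prtn3 were 11.6-fold, 14.6-fold and 12.1-fold above the next highest library. The 3 azurophil genes therefore exceeded each of the other 7 members in this ratio.

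**Figure D2:**
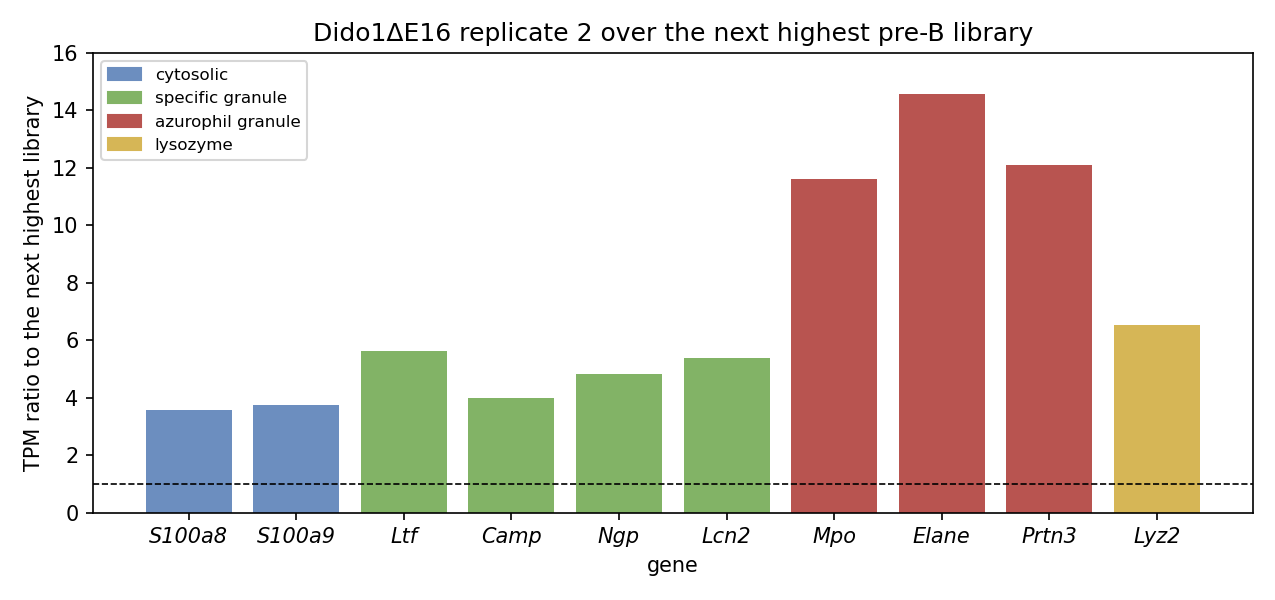
TPM of each gene in Dido1ΔE16 replicate 2 divided by its TPM in the next highest of the other 3 pre-B libraries, with bars coloured by granule class and a dashed line at 1. The bars of Mpo, Elane and Prtn3 (11.6 to 14.6) stand above those of the other genes (3.57 to 6.53), and each bar compares single libraries without an error.

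The classes also differed between the replicates of a genotype. From WT replicate 1 to WT replicate 2, S100a8 and S100a9 differed 8.62-fold and 9.61-fold, and Camp, Ngp and Lcn2 between 8.07-fold and 10.1-fold. Mpo, Elane and Prtn3 differed 5.01-fold, 3.02-fold and 1.91-fold. Between the Dido1ΔE16 replicates, S100a8 and S100a9 differed 8.24-fold and 7.40-fold, the specific granule genes between 9.11-fold and 11.5-fold, and the azurophil genes between 12.1-fold and 19.2-fold. Summed over the 10 genes, replicate 2 was 9.06-fold above replicate 1 in each genotype.

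The summed TPM of the azurophil genes was 11.2% of that of the specific granule genes in WT replicate 1, 3.96% in WT replicate 2, 6.80% in Dido1ΔE16 replicate 1 and 11.6% in Dido1ΔE16 replicate 2. The genotypes overlapped in this proportion, and the value of WT replicate 1 lacks Ltf. The precision of the low values was limited by depth, since a TPM of 1 corresponded to a mean coverage of between 0.462 and 0.649 reads per base. The 3 azurophil genes had a mean coverage of 1.72 to 2.23 reads per base in WT replicate 1 and of 54.3 to 96.5 in Dido1ΔE16 replicate 2.

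Coverage extended over most exons of the genes. In Dido1ΔE16 replicate 2 every exon of every one of the 10 genes had coverage. Lcn2, with 6 exons, was covered over all of them in all 4 libraries, and the coverage of its exons lay between 4.34 and 18.4 reads per base in WT replicate 1 and between 329 and 532 in Dido1ΔE16 replicate 2. Of the 14 exons of Mpo, 12 had coverage in WT replicate 1 and all 14 in the other libraries. Elane had coverage in 4 of its 5 exons in WT replicate 1, and S100a8 and S100a9 each in 2 of 3 in WT replicate 1 and Dido1ΔE16 replicate 1. Coverage was low in single exons even in Dido1ΔE16 replicate 2, with 5.19 reads per base in 1 exon of S100a8 and 2.28 in 1 of S100a9, where the highest exons reached 1205 and 1745.

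**Figure D3:**
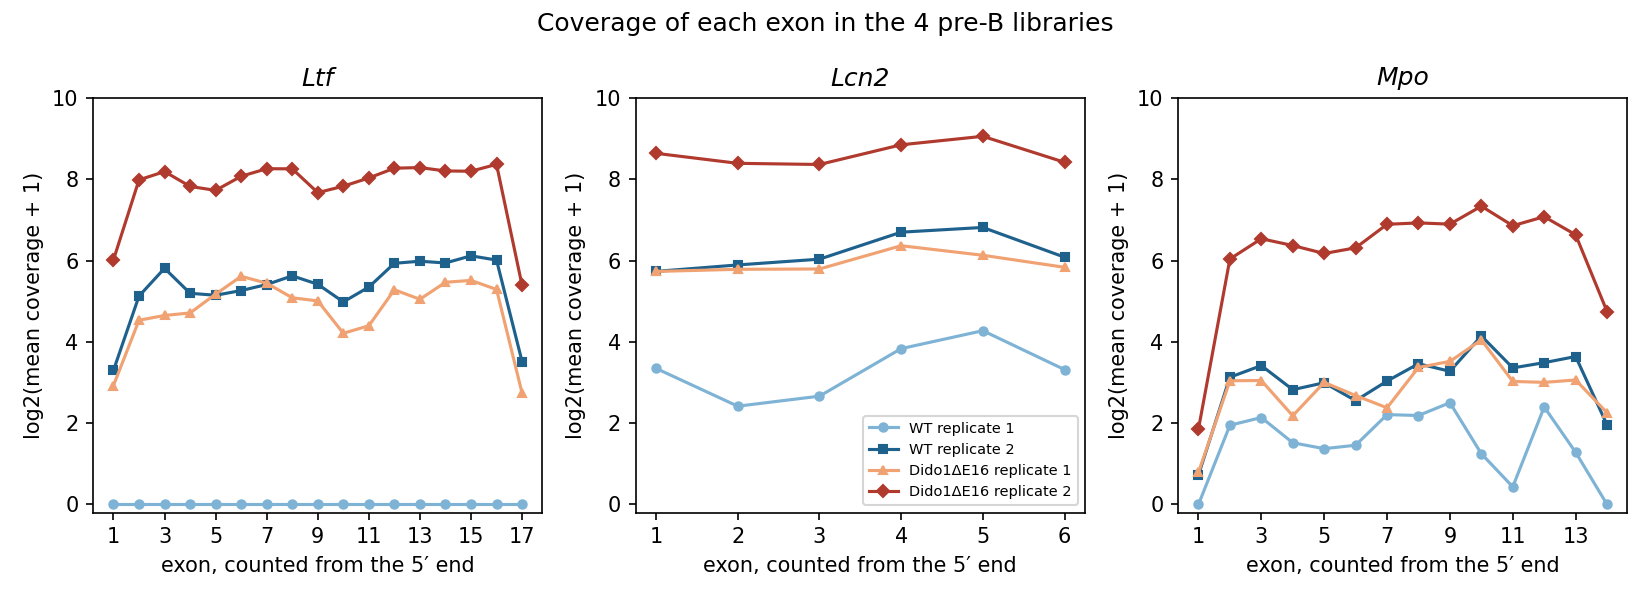
Mean read coverage of each exon of Ltf, Lcn2 and Mpo in the 4 pre-B libraries, as log2(coverage + 1) against the exon counted from the 5′ end. Dido1ΔE16 replicate 2 lies above the other libraries at every exon, and Ltf is at 0 over its 17 exons in WT replicate 1.

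Other genes of the same programme were examined with 4 neutrophil lists, which held 42 tested genes besides the 10. None of the 42 was called by limma with Benjamini-Hochberg adjustment, while 3 were higher and 1 was lower in Dido1ΔE16 at an unadjusted p under 0.05. Over all genes tested, 8.63% were higher and 3.03% lower at that p. Of these 42 genes, 25 were at least 3-fold above every other library in Dido1ΔE16 replicate 2 and 17 stood in the order of libraries described above. Over all genes tested these shares were 1.95% and 2.44%. Both Dido1ΔE16 libraries were above both WT libraries for 9 of them and below for 1, beside 27.1% and 15.5% of all genes tested. Their median log2 difference was 1.45. Of the 42 genes, 15 were listed at 0 in WT replicate 1 and enter this median at that value. As for Ltf, such a 0 can be a failed estimate, which would also place a gene lowest in that library. The lists were chosen with results of these data known.

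Among the other specific and gelatinase granule genes, 14 of 20 were at least 3-fold apart in Dido1ΔE16 replicate 2, beside 1.95% of all genes tested. The list also held genes of broad expression with close values in the 4 libraries, such as Cyba, a subunit of the NADPH oxidase, at 425 and 533 TPM in WT and 438 and 506 TPM in Dido1ΔE16 libraries. Of the 7 other azurophil genes tested, 2 were 3-fold apart, beside the same 1.95% of all genes tested. Srgn, the granule proteoglycan serglycin, was at 828 and 1054 TPM in WT and 874 and 870 TPM in Dido1ΔE16 libraries, and Serpinb1a, an inhibitor of elastase, was at 73.7 and 64.5 TPM in WT and 115 and 128 TPM in Dido1ΔE16 libraries. Among the other cytosolic and surface genes of neutrophils, 7 of 8 were 3-fold apart, again beside 1.95% of all genes tested. Ly6g, the antigen recognised by antibodies to neutrophils and chosen here after its values were seen, was listed at 0 and 7.63 TPM in WT and at 4.24 and 47.9 TPM in Dido1ΔE16 libraries.

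Of the transcription factors of granulocytes, 2 of 7 were 3-fold apart in Dido1ΔE16 replicate 2, beside 1.95% of all genes tested. Spi1, which encodes PU.1, a factor of both myeloid and B cells, was at 300.1 and 336 TPM in WT and 281 and 317 TPM in Dido1ΔE16 libraries. Gfi1, a repressor with roles in both lineages, was at 19.3 and 54.4 TPM in WT and 31.4 and 28.2 TPM in Dido1ΔE16 libraries. Cebpe, the C/EBP factor of specific granule formation and chosen here after its values were seen, was listed at 0 and 4.51 TPM in WT and at 1.82 and 24.5 TPM in Dido1ΔE16 libraries. Spi1 thus lay within 281 to 336 TPM in all libraries, while Cebpe stood in the order of the granule genes.

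Many markers of other cell types were also highest in Dido1ΔE16 replicate 2, but not all stood in the order of the granule genes. The eosinophil, basophil and mast cell list summed to 6.74 and 35.7 TPM in WT and to 46.1 and 634 TPM in Dido1ΔE16 libraries. All 7 of its tested genes were at least 3-fold apart in Dido1ΔE16 replicate 2, beside 1.95% of all genes tested. Of these, 4 stood in the order of the granule genes, beside 2.44% of all genes tested. Prg2, the eosinophil major basic protein, was at 4.27 and 14.3 TPM in WT and 23.4 and 337 TPM in Dido1ΔE16 libraries, and Ear1, an eosinophil ribonuclease, was at 0.949 and 8.40 TPM in WT and 7.83 and 121 TPM in Dido1ΔE16 libraries. Siglecf, Fcer1a, Gzmb and Ms4a2 of this list were at 0 in all 4 libraries.

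The erythroid list summed to 526 and 1199 TPM in WT and to 956 and 10099 TPM in Dido1ΔE16 libraries. Of its 10 tested genes, 7 were at least 3-fold apart in Dido1ΔE16 replicate 2, beside 1.95% of all genes tested. Hba-a2, an alpha globin, was at 244 and 738 TPM in WT and 548 and 7018 TPM in Dido1ΔE16 libraries, and Hbb-bs, a beta globin, was at 54.3 and 180.3 TPM in WT and 124 and 1564 TPM in Dido1ΔE16 libraries. The alpha and beta globins each have near-identical copies, and 4 of the 18 listed symbols were not found. Car1 and Epor were at 0 in all 4 libraries. Of the 10 tested erythroid genes, 4 stood in the order of the granule genes, beside 2.44% of all genes tested. Both Dido1ΔE16 libraries were above both WT libraries for 4 of the 10 and below for 1, beside 27.1% and 15.5% of all genes tested. The monocyte and macrophage list, which includes Lyz2, summed to 307 and 614 TPM in WT and to 548 and 2060 TPM in Dido1ΔE16 libraries, and 6 of its 13 other tested genes were 3-fold apart. Of these 13 genes, 6 stood in the order of the granule genes, and 4 were above both WT libraries in both Dido1ΔE16 libraries. Over all genes tested, 1.95% were 3-fold apart, 2.44% stood in this order and 27.1% were above in both. Ctss, a protease of myeloid and B cells, was at 250.2 and 335 TPM in WT and 359 and 429 TPM in Dido1ΔE16 libraries.

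The T and NK cell list summed to between 24.1 and 42.1 TPM, and Cd3e, Cd3g, Cd4, Cd8a, Ncr1 and Gzma were at 0 in all 4 libraries. Its most abundant genes were Lck, a kinase also present in B-lineage cells, at 12.6 to 22.3 TPM, and Klrb1c, an NK receptor, at 3.30 to 7.37 TPM. Of the 5 tested genes of this list, 1 was 3-fold apart in Dido1ΔE16 replicate 2, the cytotoxic granule gene Nkg7, listed at 16.3 TPM there and at 0 in the other libraries. The dendritic cell list summed to between 3195 and 4911 TPM, of which Ly6d, a gene also of early B cells, held 2777 to 4469 TPM and Irf8, a factor of both lineages, 289 to 394 TPM. Of its 5 tested genes, 1 was 3-fold apart, Siglech, a lectin of plasmacytoid dendritic cells, which was listed at 0 in both WT libraries and was at 0.781 and 5.26 TPM in Dido1ΔE16 libraries. Itgax, Xcr1 and Clec9a were at 0 in all 4 libraries. Nkg7 and Siglech were chosen here after their values were seen. The most abundant pre-B markers, Vpreb3 at 4522 to 5825 TPM and Cd79b at 3393 to 4458 TPM, did not follow the granule genes. None of the 20 pre-B markers was 3-fold apart in Dido1ΔE16 replicate 2 or stood in the order of libraries of the granule genes. Over all genes tested these shares were 1.95% and 2.44%. The limma fit called none of the 20 pre-B markers. At an unadjusted limma p under 0.05, 4 of them were higher in Dido1ΔE16 and 0 lower. The shares over all genes tested were 8.63% and 3.03%. These 4 are named here after their values were seen. Vpreb1, a component of the surrogate light chain, was at 108 and 40.9 TPM in WT and 1222 and 738 TPM in Dido1ΔE16 libraries. Vpreb2, its close paralog, was at 27.1 and 8.76 TPM in WT and 382 and 168 TPM in Dido1ΔE16 libraries. Igll1, the other component, was at 112 and 34.4 TPM in WT and 424 and 252 TPM in Dido1ΔE16 libraries, and Dntt, which encodes terminal transferase, was at 48.7 and 7.18 TPM in WT and 191 and 96.0 TPM in Dido1ΔE16 libraries. These 4 genes of early B-lineage stages, picked on these values, were higher in both Dido1ΔE16 libraries, without the overlap of genotypes seen for most granule genes. Of all 20 pre-B markers, 6 were above both WT libraries in both Dido1ΔE16 libraries and 5 were below. The shares over all genes tested were 27.1% and 15.5%. The part of other cell types in the values of the granule genes was not tested.

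**Figure D4:**
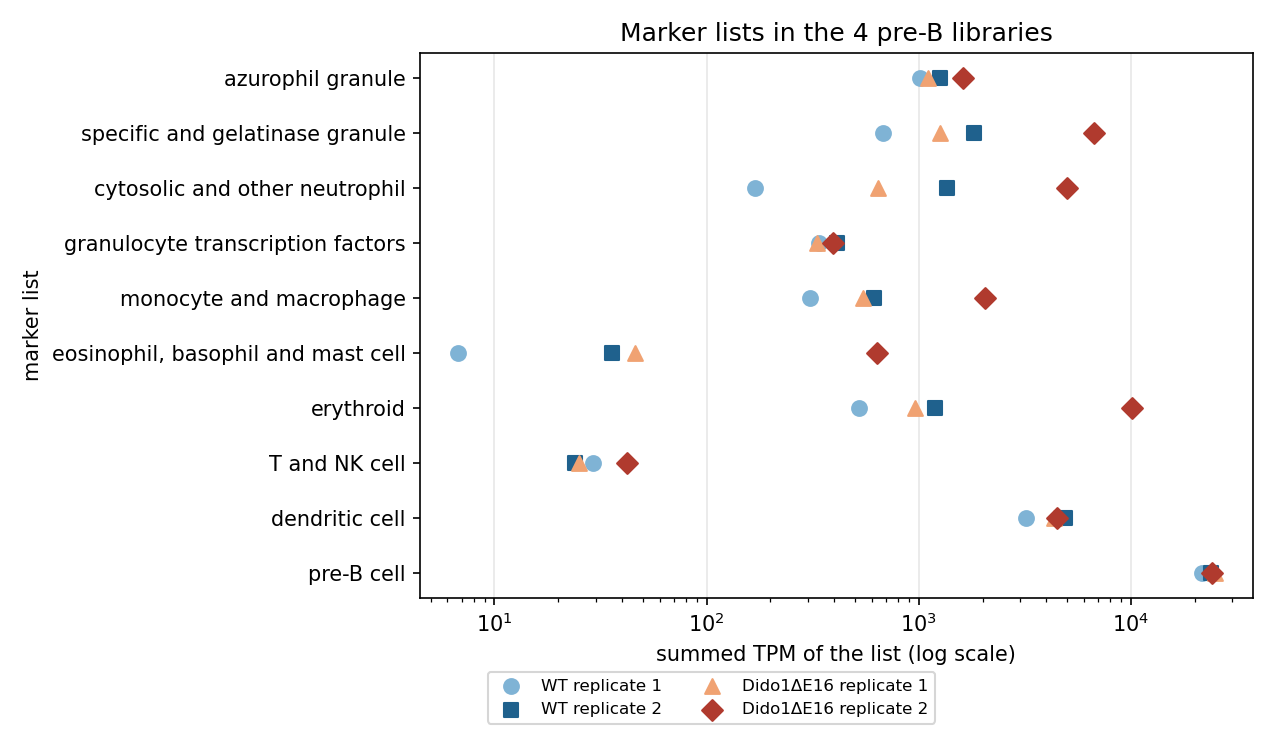
Summed TPM of each marker list (log axis) in the 4 pre-B libraries, with 1 point per library. The eosinophil, basophil and mast cell list (634 TPM), the erythroid list (10099 TPM) and the neutrophil granule and cytosolic lists are highest in Dido1ΔE16 replicate 2. The list of granulocyte transcription factors is highest in WT replicate 2 (411 TPM, against 397 TPM in Dido1ΔE16 replicate 2). The pre-B list lies between 21538 and 24844 TPM.

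The pools also differed in sex, although the mice are described as sex-matched and the RNA-seq tracks as coming from male mice. These genes were chosen after their values were seen. Eif2s3y, a gene of the Y chromosome, was at 120.1 TPM in WT replicate 1, at 29.3 TPM in Dido1ΔE16 replicate 1 and at 0 in both replicates 2. Xist, the RNA of the inactive X chromosome, was listed at 0 in WT replicate 1 and was at 31.6 to 37.3 TPM in the other libraries. Dido1ΔE16 replicate 1 thus held both Xist and transcripts of the Y chromosome. The granule genes were lowest in the library with the highest level of Eif2s3y and highest in 1 of the 2 libraries without it. The part of sex in the values of the granule genes was not tested.

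Of all genes outside these lists whose 4 values spanned at least 3 log2 units, the 10 most like the granule genes were Chil1, Ccl6, Fcna, Itgb2l, S100a6, C3, Fcnb, Ear6, Vcam1 and Ly6c1. Likeness was the root mean square difference from the median profile of the 10 genes, each centred on its own mean of log2(TPM + 1) over the 4 libraries. It was 0.12 log2 units for Chil1, a chitinase-like protein, and 0.48 for Ly6c1, and between 0.10 and 1.46 for the 10 granule genes themselves. Chil1 was listed at 0 and 6.84 TPM in WT and at 3.80 and 45.1 TPM in Dido1ΔE16 libraries. Of these 10 genes, 8 were listed at 0 in WT replicate 1.

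The promoters of the granule genes were searched for the letters of 3 myeloid factor motifs, on both strands, from 250 bases before to 50 bases after the start site in RefSeq (GRCm38.p6). The motif GAGGAAGT of PU.1 was found in 4 of the 10 promoters, those of all 3 azurophil genes and of S100a8, and in 3.2% of all 32851 promoters. It lay 224 bases before the start site in Mpo, 85 in Elane and 95 in Prtn3. The motif TTNNGCAA of C/EBP was found in 4 of the 10, those of Ltf, Ngp, Lcn2 and S100a9, and in 10.8% of all promoters. It lay 75 bases before the start site in Ltf, 138 and 11 bases before it in Ngp, and 216 bases before it in Lcn2. The motif TGTGGT of RUNX was found in S100a9, Ltf and Lyz2 and in 16.8% of all promoters. No match overlapped another, and no promoter held the letters of both PU.1 and C/EBP. In the windows searched, the 3 azurophil genes thus held the PU.1 letters and not those of C/EBP. The specific granule genes held those of C/EBP and not of PU.1, apart from Camp, which had none of the 3. The letters did not follow the classes over all 10 genes, since the cytosolic genes S100a8 and S100a9 differed in them. A match of letters is a description of the sequence and not evidence of binding.

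The promoters of the azurophil genes are shown 5′ to 3′ on the strand of the gene, with the PU.1 letters in capitals, at chr11:87793534-87793833 for Mpo (plus strand), chr10:79886062-79886361 for Elane (plus strand) and chr10:79879417-79879716 for Prtn3 (plus strand), because these 3 genes stood furthest apart in Dido1ΔE16 replicate 2.
Mpo: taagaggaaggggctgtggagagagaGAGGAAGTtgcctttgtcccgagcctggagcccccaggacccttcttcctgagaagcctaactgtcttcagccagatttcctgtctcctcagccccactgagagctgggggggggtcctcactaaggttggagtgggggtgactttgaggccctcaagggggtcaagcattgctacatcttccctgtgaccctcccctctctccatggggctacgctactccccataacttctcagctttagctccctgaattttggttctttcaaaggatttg
Elane: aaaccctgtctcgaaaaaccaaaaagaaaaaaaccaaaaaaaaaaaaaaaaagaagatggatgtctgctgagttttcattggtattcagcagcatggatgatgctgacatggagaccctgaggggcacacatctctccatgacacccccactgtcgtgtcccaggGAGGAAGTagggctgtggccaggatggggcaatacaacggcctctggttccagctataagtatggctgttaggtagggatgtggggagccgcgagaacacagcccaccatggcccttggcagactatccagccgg
Prtn3: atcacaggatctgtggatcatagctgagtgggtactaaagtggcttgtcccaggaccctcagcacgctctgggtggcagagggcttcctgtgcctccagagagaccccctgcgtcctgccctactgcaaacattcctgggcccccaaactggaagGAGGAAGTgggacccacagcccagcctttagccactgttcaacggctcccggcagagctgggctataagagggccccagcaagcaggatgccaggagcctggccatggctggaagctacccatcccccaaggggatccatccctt

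The promoters of the specific granule genes with C/EBP letters, in capitals here, are shown for comparison, at chr9:111019042-111019341 for Ltf (plus strand), chr9:110419558-110419857 for Ngp (plus strand) and chr2:32387690-32387989 for Lcn2 (minus strand).
Ltf: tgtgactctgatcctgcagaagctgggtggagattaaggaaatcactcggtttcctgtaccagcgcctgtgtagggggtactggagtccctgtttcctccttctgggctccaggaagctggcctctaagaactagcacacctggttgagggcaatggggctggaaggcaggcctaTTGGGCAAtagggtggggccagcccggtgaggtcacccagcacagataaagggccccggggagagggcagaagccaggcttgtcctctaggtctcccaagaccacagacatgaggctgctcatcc
Ngp: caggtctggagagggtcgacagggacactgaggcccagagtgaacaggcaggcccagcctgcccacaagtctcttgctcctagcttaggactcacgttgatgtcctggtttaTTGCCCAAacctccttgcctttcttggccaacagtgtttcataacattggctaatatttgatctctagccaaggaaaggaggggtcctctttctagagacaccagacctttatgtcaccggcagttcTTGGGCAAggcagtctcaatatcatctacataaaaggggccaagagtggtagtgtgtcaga
Lcn2: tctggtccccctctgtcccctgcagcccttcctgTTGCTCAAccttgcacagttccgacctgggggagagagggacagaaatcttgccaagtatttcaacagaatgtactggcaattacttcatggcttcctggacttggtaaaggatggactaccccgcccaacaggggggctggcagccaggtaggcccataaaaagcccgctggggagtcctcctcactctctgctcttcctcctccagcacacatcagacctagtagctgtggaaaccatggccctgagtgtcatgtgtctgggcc

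Accessibility at the 10 genes was examined in LSK cells, in which granule genes are not yet expressed at the level of maturing neutrophils. The libraries had 27352 and 57739 MACS2 peaks in WT and 13208 and 16329 in Dido1ΔE16, from 10249256 and 52050898 tags in WT and 22533077 and 44633938 tags in Dido1ΔE16 libraries. By the gene symbol in the annotation of the peaks, WT replicates 1 and 2 had 2 and 6 peaks, and Dido1ΔE16 replicates 1 and 2 had 0 and 1, that belonged to the 10 genes. They lay at S100a8, S100a9, Ltf and Lyz2. With HOMER peaks the counts were 2 and 7 in WT and 1 and 1 in Dido1ΔE16 libraries, at 5 genes. No peak of either caller bore the symbol of Ngp, Lcn2, Mpo, Elane or Prtn3, and a HOMER peak in WT replicate 2 alone bore that of Camp.

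Among peaks bearing the symbol of one of the 10 genes, the most recurrent region lay 14.5 kb upstream of S100a9. MACS2 called it in both WT libraries, with scores of 40 and 186, and in Dido1ΔE16 replicate 2, with a score of 36. HOMER called it in all 4 libraries. The segment common to all these calls is shown (GRCm38.p6, chr3:90710177-90710327, plus strand), since it was the 1 region with the symbol of one of the 10 genes that HOMER called in every library.
S100a9 upstream region: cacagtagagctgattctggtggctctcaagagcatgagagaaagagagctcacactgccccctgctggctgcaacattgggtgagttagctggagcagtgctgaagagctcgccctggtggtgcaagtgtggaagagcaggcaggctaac

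This segment of 151 bases held none of the 3 motifs. Windows of this length were also centred on the regions shared by the WT libraries. Of these, 4.82%, 6.02% and 15.8% held the motifs of PU.1, C/EBP and RUNX, so most windows lacked each motif as well.

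Lyz2 was the gene of the 10 with the most MACS2 peaks by symbol, with 1 and 3 MACS2 peaks in the WT libraries and none in the Dido1ΔE16 libraries. It was the 1 gene of the 10 with fewer peaks in both Dido1ΔE16 libraries than in both WT libraries, beside 35.6% of all genes with a MACS2 peak. With HOMER peaks it was again 1 gene, Lyz2, beside 19.5% of all genes with a HOMER peak. The peak found in both WT libraries lay downstream, 7.42 kb and 7.33 kb from the start of the gene, with scores of 31 and 86. A peak at the promoter of Lyz2, at chr10:117282175-117282463 with a score of 57, was called in WT replicate 2 only. When every list was shortened to its best-scoring peaks, equal in number between libraries, Lyz2 had no peak in any library and no gene of the 10 had fewer peaks in both Dido1ΔE16 libraries.

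Of 2 regions with the symbol of one of the 10 genes that were shared by the WT libraries, that of Lyz2 had no Dido1ΔE16 peak and that of S100a9 had one in Dido1ΔE16 replicate 2, beside 43.7% of all WT-shared regions without a Dido1ΔE16 peak. At Ltf, a peak at the promoter was called by MACS2 in WT replicate 2 only, at chr9:111019107-111019306 with a score of 15, where the lowest score in any library was 10. With lists of equal length, the S100a9 region was the 1 region with such a symbol left and had a Dido1ΔE16 peak, beside 13.3% of all WT-shared regions without one.

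**Figure D5:**
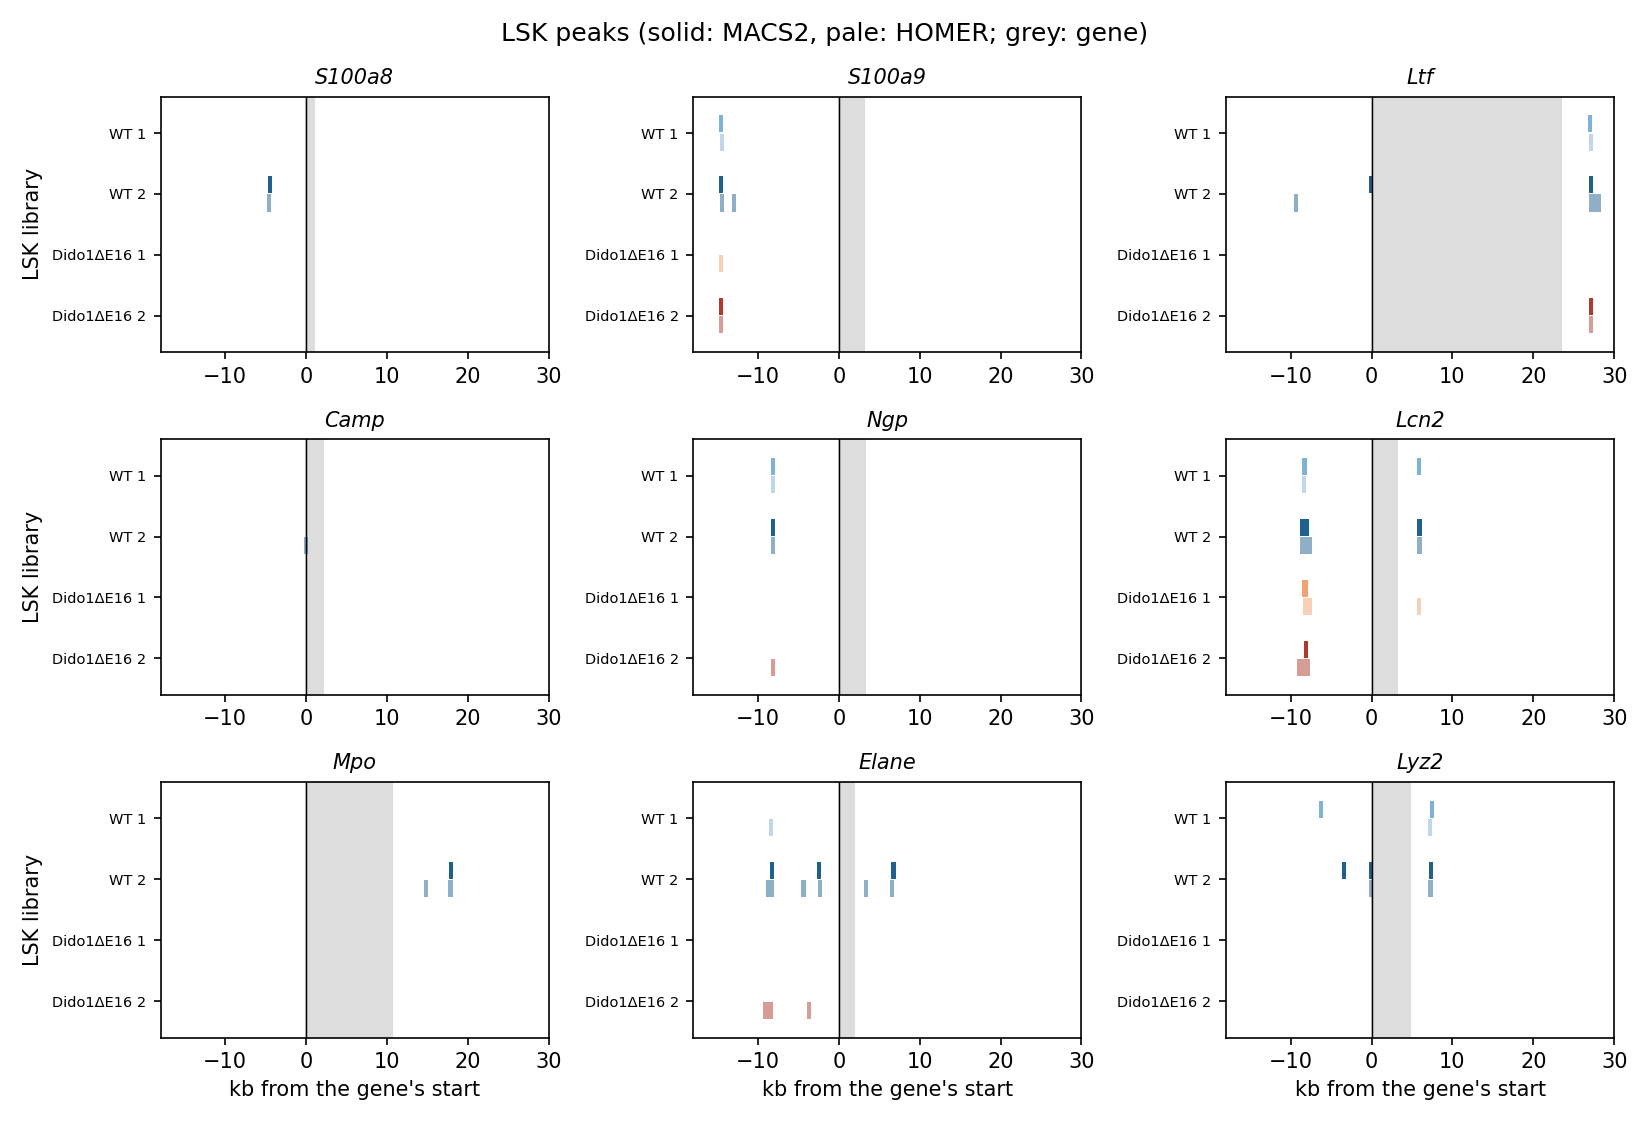
LSK peaks at 9 of the 10 genes against the distance from the start of the gene in kb, in the direction of transcription, with the gene in grey, MACS2 peaks solid and HOMER peaks pale, and each peak drawn at least 0.5 kb wide. Prtn3 shares its locus with Elane and is not drawn, and the peaks at Lyz2 are in WT libraries only. The region upstream of S100a9 was called by HOMER in all 4 libraries and by MACS2 in all but Dido1ΔE16 replicate 1.

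Symbols missed peaks that lay close to the genes. Within 10 kb of a gene there were 25 MACS2 peaks over the 10 genes, counting a peak near 2 genes for each, and 19 of them bore the symbol of another gene. WT replicates 1 and 2 had 6 and 16 of them, and Dido1ΔE16 replicates 1 and 2 had 1 and 2. At Elane and Prtn3 all peaks were annotated to Bc1, a gene whose start lay far outside this window. WT replicate 2 had 3 MACS2 peaks there, which counted for both genes, with scores of 17 to 24, and HOMER called peaks there in WT replicates 1 and 2 and in Dido1ΔE16 replicate 2. At Lcn2 the peaks lay at the promoters of Ptges2 and 1110008P14Rik, 8.20 kb upstream and 5.84 kb downstream of its start in Dido1ΔE16 replicate 1 and WT replicate 1. The region at the promoter of Ptges2 was called by both callers in all 4 libraries. The peak 8.14 kb upstream of Ngp was called by MACS2 in both WT libraries and by HOMER in both of them and in Dido1ΔE16 replicate 2. Counted by position, 3 genes, Ngp, Lcn2 and Lyz2, had fewer MACS2 peaks in both Dido1ΔE16 libraries than in both WT libraries, beside 34.1% of all genes with a peak in this window. With HOMER peaks 1 gene, Lyz2, did, beside 16.7%. No MACS2 peak of any library lay within 10 kb of Camp or S100a9.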

How the data were processed

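RNA-seq of sorted pre-B cells and Omni-ATAC-seq of sorted LSK cells were analysed, with 2 WT and 2 Dido1ΔE16 libraries each. The labels do not say that replicates came from separate sorts, and p-values measure only the spread between these libraries. The authors aligned RNA reads to mm10 with BWA-MEM (BWA 0.7.15 per the submitters' processing notes), an aligner without splicing, removed duplicates and quantified the UCSC known genes with StringTie 2.0. Removal of duplicates can lower short, abundant transcripts such as S100a8. The deposited values are TPM and FPKM for each transcript, with its coverage, and the TPM of a gene's transcripts were summed here. TPM keeps no depth.

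Symbols were taken from the deposited files for 30126 of 63924 transcripts, and 26260 others were named by GENCODE M21 genes that share at least 50% of their exonic bases. Where both gave a symbol, 97.4% matched. Of the 10 genes, 8 were named by the files and 2, Mpo and Prtn3, by GENCODE only. Gene sums with a mean TPM of at least 1 were fitted as log2(TPM + 1) with limma 3.58.1 in R 4.3.3 (eBayes with a trend, Benjamini-Hochberg adjustment), and the fit was tested on simulated data. A fold change on this scale understates the change of low genes.

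For ATAC-seq the authors used MACS2 and HOMER to call peaks in each library and annotated them with ChIPseeker, with promoters from 1 kb before to 200 bp after a start site. Each deposited MACS2 peak has a score, which orders the peaks of a library. Regions counted as shared from an overlap of 1 bp (bedtools 2.31.1). The authors' deposited lists of differential regions and tables of differential expression hold log2 fold changes, p-values and adjusted p-values, which were not used, nor were 8 columns of tag counts. Of the lists only positions and tag totals were used, and of 1 expression table only the pairs of transcript and symbol.

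The 10 genes, the marker lists and the tests were chosen with earlier results of these data known. The genes named are the 10, the 2 most abundant of each marker list, Lyz1, Dido1 and the 10 genes most like the 10 in profile, except where stated. The alternatives were another pseudocount, no filter, median-centring, FPKM, no trend, the replicate number as a block, other sets of peaks and overlaps, and leaving out each library. Peaks by position and the symbols of the files alone were added after the data were seen.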

Additional observations from a re-analysis of the deposited data

How the results depend on the processing

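The 98 values of the log2 difference of single granule genes under the alternatives all stayed above 0. All moved by less than the SD between replicates, which was large. With 2 libraries per genotype, leaving 1 out cannot move a value by more than this SD, so nothing is read from that count. Their median stayed between 2.16 and 2.47 under alternatives that kept all libraries, and leaving out 1 library moved it between 0.56 and 4.14. A fit without 1 library assumes that the lone library of its genotype varies like the other genotype. The ratio of the summed TPM was 4.28 with FPKM and 4.50 with TPM totals recomputed without the 10 genes, and leaving out 1 library moved it between 0.889 and 22.5. Over all genes, limma called 6, and 0 with a pseudocount of 0.1, 0 without a filter, 87 without a trend, 9 with the symbols of the files alone, and 0 without any 1 library. With the replicate number as a replicate block, 0 genes were called, and the median difference of the granule genes was again 2.42, since the design is balanced. The labels do not say what a number marks, and over all genes the deviations of same-numbered libraries had a correlation of 0.0496 across genes. The count of genes with fewer LSK peaks in both Dido1ΔE16 libraries was 0 instead of 1 with lists of best-scoring peaks of equal length, with the better-scoring 50% and with promoter peaks alone, 3 by position, and 1 to 3 without 1 library. The peaks of the 10 genes numbered 8 in WT and 1 in Dido1ΔE16 libraries. In WT they numbered 2 with lists of equal length, 5 with the better-scoring 50%, 2 at promoters, 22 by position and 2 to 8 without 1 library. In Dido1ΔE16 libraries they numbered 2 with HOMER, 0 at promoters, 3 by position and 0 to 1 without 1 library. WT-shared regions without a Dido1ΔE16 peak numbered 0 instead of 1 with lists of equal length. The cause of these shifts was not tested, beyond the smaller numbers of peaks and libraries that the alternatives use.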

Other observations

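The authors' lists of differential LSK regions hold 5231 and 8540 regions. They are named for opposite comparisons, Dido1ΔE16 against WT and WT against Dido1ΔE16. Within 10 kb of the 10 granule genes each list holds 1 region, and both lie past the end of Ltf, at chr9:111046272-111046601, 3.51 kb from the gene, and at chr9:111045692-111047660, 2.93 kb from it. The first of these regions lies within the second, so both mark 1 position, and no direction is read from it. The annotation of the peaks assigns this position to Ccrl2. MACS2 called a peak there in both WT libraries (scores of 69 and 193) and in Dido1ΔE16 replicate 2 (score of 28).

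Among the genes most like the granule genes in profile, Ear6, an eosinophil ribonuclease gene, was at 1.05 and 6.33 TPM in WT and at 5.95 and 84.0 TPM in Dido1ΔE16 libraries. C3, a complement component, was at 0.380 and 4.62 TPM in WT and at 3.88 and 46.3 TPM in Dido1ΔE16 libraries. Fcnb, which encodes a ficolin of myeloid cells, was listed at 0 and 4.96 TPM in WT and was at 5.74 and 39.5 TPM in Dido1ΔE16 libraries.

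Within the eosinophil, basophil and mast cell list, Epx and Prss34, which encode eosinophil peroxidase and a basophil protease and are named after their values were seen, were listed at 0 in both WT libraries. They were at 3.01 and 2.43 TPM in Dido1ΔE16 replicate 1 and at 41.4 and 25.8 TPM in Dido1ΔE16 replicate 2.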
